A study of Homo sapiens with 16 samples.

Results

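A549, a lung adenocarcinoma cell line that expresses wt MET, was compared between 6 and 3 h of treatment with hepatocyte growth factor (HGF), the ligand of the MET receptor. The comparison took the 2 libraries labelled MET wt at 6 h and the 2 at 3 h, which are 4 of the 16 libraries of the series. The series sequenced polyA RNA of A549 and of NCI-H596, a lung adenosquamous carcinoma line expressing MET that lacks exon 14 (MET∆14), after 0, 3, 6 or 12 h of HGF in biological duplicates. All cells were deprived of serum before HGF, for 12 h per the labels and for longer per the study's methods, and no dose of HGF is given for the sequencing. The titles name A549 as the wt MET line, whereas the study's text uses WT for EKVX, another lung adenocarcinoma line. Each MET status is represented by 1 line. None of the 16 libraries was taken at 3 or 6 h without HGF, so time since serum withdrawal and HGF cannot be told apart.

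HGF binding makes MET a docking site for adaptors that switch on the RAS and ERK, PI3K and AKT, and STAT3 pathways. ERK signalling first induces the immediate early genes, which need no new protein for their transcription, encode mostly transcription factors and give short-lived transcripts. Delayed genes follow, among them inhibitors of the same pathway, secreted factors and matrix proteins, and in cells that enter the cell cycle later still the genes of DNA replication and mitosis.

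The deposited reads per gene summed to 15915862 and 13226488 at 3 h and to 17707980 and 16106687 at 6 h. The 2 libraries of a time differed by more than sampling noise (chi-square over its degrees of freedom of 3.13 at 3 h and 2.75 at 6 h), so none was a copy of another. At 12 h of NCI-H596, by contrast, this ratio was 34.1, and these 2 libraries raise the spread that all comparisons share. The label A549 was checked against the locus of CDKN2A and MTAP, which this line is known to lack: CDKN2A had 0 counts in all 8 A549 libraries, which allows up to 3 counts in each, and MTAP had 5, 12, 23 and 17 counts in the 4 libraries compared. No EKVX data were compared, so these counts do not decide between the 2 lines. Summed markers of blood, endothelial and fibroblast cells were at 14.7 and 14.1 counts scaled to a common library size (CPM) at 3 h and 14.4 and 19.99 CPM at 6 h, with 11 of the 15 genes at 3 counts or fewer in every A549 library. Summed markers of the lung epithelial lineage were at 4422 and 4211 CPM, then 4131 and 4285 CPM, but 7 of the 22, the surfactant gene SFTPA1 among them, were at 3 counts or fewer. Most of this sum came from the keratin genes KRT7, KRT18 and KRT8, with 28538, 22807 and 12649 counts in 3 h replicate 1. In that library NKX2-1 and NAPSA had 7 counts each and EPCAM 13, whereas FOXA2 had 645 and ABCA3 613.

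Between 3 and 6 h, 17 of 30 immediate early genes and 22 of 40 genes of mitosis fell, while genes of secreted factors such as INHBA and IL11, the integrin gene ITGA2 and the EGR corepressor genes NAB1 and NAB2 rose. With edgeR's quasi-likelihood test and Benjamini-Hochberg adjustment over 15067 genes, 467 genes (3.1%) passed an adjusted p of 0.05. Of these, 217 (1.44% of genes tested) were higher and 250 (1.66%) lower at 6 h. At least a 2-fold change was seen for 33 of the higher and 35 of the lower genes, and the median log2 change was 0.60 among those higher, -0.62 among those lower and -0.01 over all genes. Around this interval, the same test called 17.4% of genes between 0 and 3 h, 34.2% between 0 and 6 h and 11.6% between 6 and 12 h, comparisons that share libraries with the present one. Without the NCI-H596 12 h libraries 1288 genes (8.59% of 14990) were called, 465 of them among the 467, and a fit of the 4 A549 libraries alone called 2435 (18.5% of 13167). Fewer genes were called with any 1 of the 4 libraries left out, and the cause was not tested. In such fits a time with 1 library takes its spread from the other groups.

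**Figure D1:**
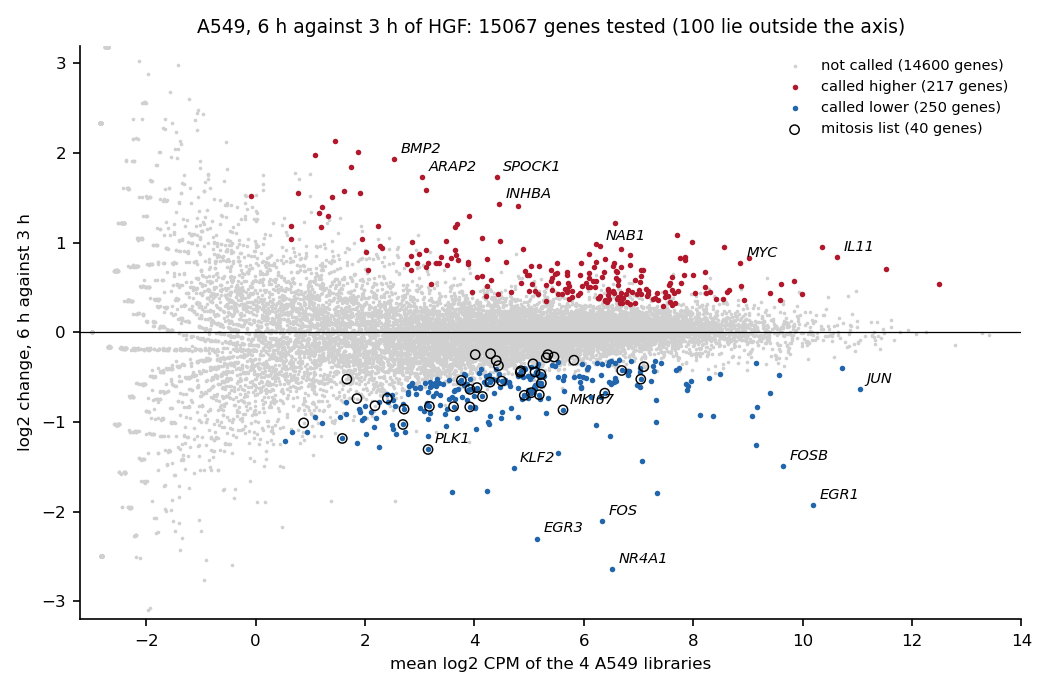
Log2 change from 3 to 6 h (y axis) against mean log2 CPM of the 4 A549 libraries (x axis, prior count of 2) for 15067 genes. Red and blue points are the 217 genes called higher and the 250 called lower, and black circles mark the 40 genes of the mitosis list, which all lie below 0. NR4A1, EGR3 and FOS lie lowest of the labelled genes, and 1 called gene, FP565260.3, with 6 and 14 counts at 3 h and 2 and 0 at 6 h, lies below the axis.

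The immediate early list held 30 transcription factors and related genes, and all were tested. At 6 h, 17 were lower and 3 higher, with a median log2 change of -0.59 against -0.01 over all genes. In 21 of the 30 both 6 h libraries lay below both 3 h libraries, as they did for 28% of all genes tested. The 4 EGR zinc finger factors fell together. The level of EGR1 was 2203 and 2362 CPM at 3 h and 619 and 577 CPM at 6 h, and the log2 change was -1.93 ± 0.22 (SE, adjusted p = 0.000556). Both 6 h values were below both 3 h values, yet above the 0 h values of 55.9 and 118 CPM, and by 12 h the level was 99.8 and 96.7 CPM. EGR2 gave 293 and 311 CPM at 3 h and 91.2 and 82.6 CPM at 6 h, and the log2 change was -1.79 ± 0.11 (SE, adjusted p = 1.7e-07). EGR3 was at 71.9 and 85.03 CPM at 3 h and at 14.6 and 17.2 CPM at 6 h, and the log2 change was -2.30 ± 0.15 (SE, adjusted p = 3.89e-07). Its 0 h values were 0.217 and 0.424 CPM, so at 6 h the transcript still stood well above them, with no overlap. The level of EGR4 was 33.9 and 35.2 CPM at 3 h and 9.74 and 10.4 CPM at 6 h, and the log2 change was -1.78 ± 0.24 (SE, adjusted p = 0.00109).

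EGR1 is a classical target of the serum response factor, which binds the CArG box. Its promoter is shown because the largest falls are in genes of this early class. The first RefSeq promoter of the gene that held a match was taken, so a match was required in advance. The RefSeq promoter (GRCh38.p14, chr5:138465359-138465478, plus strand, 120 bases up to the annotated start) held 2 matches to the CArG box, in capitals:

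EGR1: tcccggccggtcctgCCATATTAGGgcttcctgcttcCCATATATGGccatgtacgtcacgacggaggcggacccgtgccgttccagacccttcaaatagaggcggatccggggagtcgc

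Among promoter windows of 250 bases before the start, searched on both strands, 1.16% of all 35116 RefSeq promoters held this motif, as did 1.56% of the tested genes with a promoter and 3 of the 24 immediate early genes with one (12.50%). A match is a run of letters, and binding was not measured.

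AP-1 is a dimer of FOS and JUN proteins, and 4 of the 7 genes of this family were lower. FOS gave 166 and 171 CPM at 3 h and 41.9 and 36.1 CPM at 6 h, and the log2 change was -2.11 ± 0.12 (SE, adjusted p = 1.7e-07). FOSB was at 1294 and 1400 CPM at 3 h and at 459 and 499 CPM at 6 h, and the log2 change was -1.49 ± 0.17 (SE, adjusted p = 0.000268). The level of JUN was 2597 and 2704 CPM at 3 h and 1730 and 1696 CPM at 6 h, and the log2 change was -0.63 ± 0.09 (SE, adjusted p = 0.00172). JUNB also fell (log2 change -0.67, adjusted p = 0.00408). In all 4, the values at 6 h were below those at 3 h in both libraries. The other 3 did not pass the test, with log2 changes of -0.05 for FOSL1, 0.13 for FOSL2 and -0.42 for JUND. FOSL1 stood at 2594 and 2534 CPM at 3 h and at 2464 and 2484 CPM at 6 h, and this change missed the threshold (adjusted p = 0.923).

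The NR4A genes encode orphan nuclear receptors, and all 3 were lower. NR4A1 gave 242 and 215 CPM at 3 h and 38.6 and 34.5 CPM at 6 h, and the log2 change was -2.65 ± 0.12 (SE, adjusted p = 7.98e-09), the largest fall of a gene averaging a log2 CPM of 3 or more. At 12 h NR4A1 was at 8.38 and 8.01 CPM, against 7.74 and 6.01 CPM at 0 h. NR4A2 fell by 1.78 and NR4A3 by 0.55 on the log2 scale (adjusted p = 3.6e-05 and 0.0114). The KLF factors, a family of zinc finger proteins, split. KLF2 was at 44.5 and 44.3 CPM at 3 h and at 16.6 and 14.5 CPM at 6 h, and the log2 change was -1.51 ± 0.16 (SE, adjusted p = 7.95e-05). KLF10 was lower too (log2 change -0.47), whereas KLF5 (0.34) and KLF6 (0.36) were higher and KLF4 (0.10) did not pass the test. KLF5 lost its call without the filter on low counts.

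Of the other early factors, MYC rose and HES1, a repressor downstream of Notch, fell. The level of MYC was 368 and 341 CPM at 3 h and 592 and 619 CPM at 6 h, and the log2 change was 0.77 ± 0.10 (SE, adjusted p = 0.000961). The 6 h values of MYC were above its 0 h values of 349 and 439 CPM and were held at 12 h, at 622 and 599 CPM. HES1 gave 36.6 and 39.5 CPM at 3 h and 25.1 and 20.1 CPM at 6 h, and the log2 change was -0.75 ± 0.12 (SE, adjusted p = 0.00301). IER2, IER3 and IER5L, which encode small proteins of the early response, fell by 0.94, 0.92 and 0.65 on the log2 scale. Genes on the other strand cover 52.2% of IER2 and 38.9% of IER3, and because the use of strand in counting is not stated their reads cannot be told apart. ATF3, MAFF, SRF, BHLHE40, CSRNP1 and IER5 did not pass the test, with log2 changes from -0.33 for ATF3 to 0.26 for MAFF.

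**Figure D2:**
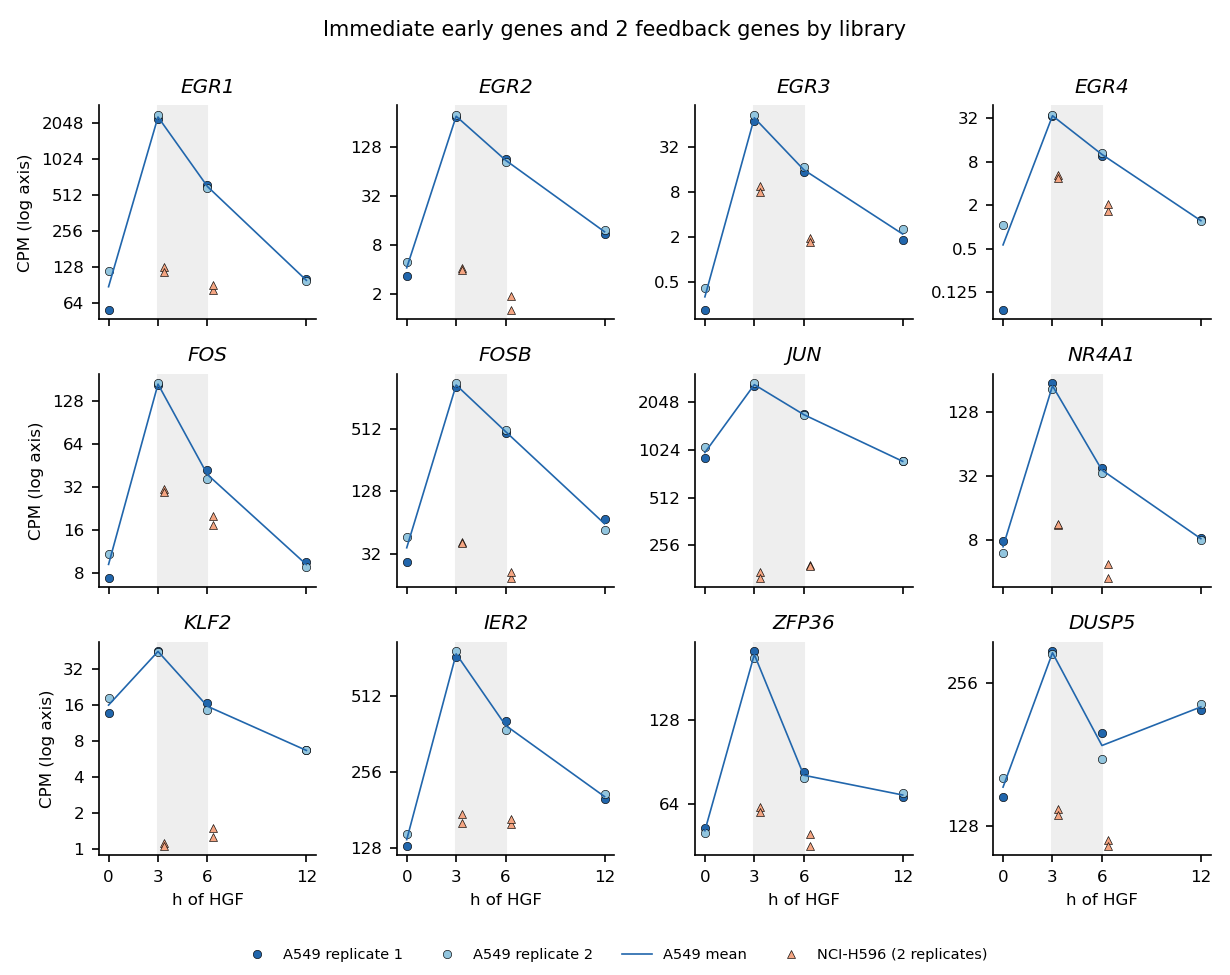
Level in CPM (y axes, log scale) at 0, 3, 6 and 12 h of HGF (x axes) for 10 immediate early genes and the feedback genes ZFP36 and DUSP5. Circles are A549 libraries, lines their means, triangles the NCI-H596 libraries at 3 and 6 h, and the grey band the interval compared. In each panel both A549 values at 6 h lie below both at 3 h.

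In 15 of the 17 early genes that fell, both 6 h libraries remained above both 0 h libraries, and in all 17 both 12 h libraries were below both 6 h libraries. For the 250 genes called lower in all, these counts were 36 and 120. Fewer of the 30 early genes were called lower with any 1 of the 4 libraries left out. The fit of the 4 libraries alone, which called 18.5% of all genes, gave 20 lower and 6 higher.

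Of the 27 genes of ERK feedback and ETS factors, 4 were lower and 1 higher (18.5%, against 3.1% of all genes tested). The dual specificity phosphatases dephosphorylate MAP kinases, and 3 of 10 tested were lower, none higher. DUSP5 was at 299 and 295 CPM at 3 h and at 202 and 177 CPM at 6 h, and the log2 change was -0.65 ± 0.10 (SE, adjusted p = 0.00216). The level of DUSP6 was 130.3 and 133 CPM at 3 h and 97.6 and 96.9 CPM at 6 h, and the log2 change was -0.43 ± 0.08 (SE, adjusted p = 0.01). DUSP5 did not keep falling, with 225 and 232 CPM at 12 h. DUSP2, at 2.47 and 2.83 CPM and then 1.03 and 1.41 CPM, had a log2 change of -1.12, and lost its call in the 8 A549 libraries alone. None of the 6 Sprouty and SPRED inhibitors passed. Among 7 ETS factors, some of which ERK phosphorylates, ETS1 rose and the repressor ERF fell. ETS1 gave 634 and 655 CPM at 3 h and 935 and 931 CPM at 6 h, and the log2 change was 0.53 ± 0.11 (SE, adjusted p = 0.016). ERF had a log2 change of -0.51.

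ZFP36 and ZC3H12A, whose proteins speed the decay of transcripts of early genes and cytokines, were lower. ZFP36 was at 226 and 215 CPM at 3 h and at 83.3 and 79.2 CPM at 6 h, and the log2 change was -1.44 ± 0.09 (SE, adjusted p = 1.7e-07). The level of ZC3H12A was 28.3 and 26.1 CPM at 3 h and 12.5 and 14.3 CPM at 6 h, and the log2 change was -1.03 ± 0.13 (SE, adjusted p = 0.000556). ZFP36 then levelled off, with 67.9 and 70.2 CPM at 12 h. The anti-proliferative genes of the BTG and TOB family moved apart, as BTG1 rose (log2 change 0.57) and TOB1 fell (-0.64).

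NAB1 and NAB2, which encode corepressors that bind EGR proteins, moved opposite to the EGR genes. NAB2 is among the genes called in A549 that differ most between the lines, and NAB1 was chosen after its values were seen. NAB1 gave 56.8 and 55.4 CPM at 3 h and 109.9 and 109 CPM at 6 h, and the log2 change was 0.96 ± 0.07 (SE, adjusted p = 1.9e-06). NAB2 was at 87.5 and 83.7 CPM at 3 h and at 153 and 158 CPM at 6 h, and the log2 change was 0.86 ± 0.08 (SE, adjusted p = 4.18e-05). The levels at 6 h were the highest of the course, against 0 h values of 25.5 and 23.6 CPM for NAB1 and 17.9 and 17.5 CPM for NAB2 and 12 h values of 75.9 and 75.5 CPM and 94.6 and 92.8 CPM. Their promoters are shown because EGR proteins are known to bind the sequence GCGGGGGCG or GCGTGGGCG. For each gene the first RefSeq promoter that held a match was taken, so a match was required in advance. The windows of NAB2 (chr12:57088994-57089113, plus strand) and NAB1 (chr2:190648775-190648894, plus strand) each held a match on one of the strands, in capitals, and that of NAB1 held 2 that overlap:

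NAB2: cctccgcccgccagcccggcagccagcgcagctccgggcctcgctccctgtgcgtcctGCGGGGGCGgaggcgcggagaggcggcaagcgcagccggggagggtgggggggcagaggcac

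NAB1: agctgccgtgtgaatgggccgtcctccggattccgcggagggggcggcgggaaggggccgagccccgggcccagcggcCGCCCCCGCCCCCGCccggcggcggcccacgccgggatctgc

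A match to the EGR site lay in 5.37% of all RefSeq promoters, in 11.30% of the tested genes with a promoter, in 12.04% of 191 genes called lower and in 22.70% of 163 called higher. These shares are descriptions without a test, since base composition and the number of promoters per gene differ between the sets.

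Several genes that rose encode secreted factors. In the TGF-beta and BMP list 4 of 20 tested genes rose and 2 fell (30%, against 3.1% of all genes tested). The level of INHBA was 13.4 and 13.2 CPM at 3 h and 32.99 and 38.4 CPM at 6 h, and the log2 change was 1.43 ± 0.15 (SE, adjusted p = 8.57e-05). INHBA encodes the subunit of activin A. BMP2 gave 2.94 and 2.83 CPM at 3 h and 9.80 and 12.3 CPM at 6 h, and the log2 change was 1.93 ± 0.17 (SE, adjusted p = 2.19e-05). BMP2, a bone morphogenetic protein gene, had been at 0.506 and 1.06 CPM at 0 h. TGFB1 rose less (log2 change 0.52), as did PMEPA1 (0.83), a feedback inhibitor of TGF-beta receptor signalling. SKI (-0.62) and ID3 (-0.50) were lower, ID3 not with DESeq2's size factors (adjusted p of 0.0398 in the fit reported). GREM1, which encodes a secreted BMP antagonist, rose with them. GREM1 was at 139 and 147 CPM at 3 h and at 283 and 325 CPM at 6 h, and the log2 change was 1.09 ± 0.18 (SE, adjusted p = 0.00892).

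IL11, a cytokine of the IL-6 family, continued to rise. The level of IL11 was 1159 and 1213 CPM at 3 h and 1913 and 2337 CPM at 6 h, and the log2 change was 0.84 ± 0.13 (SE, adjusted p = 0.00172). In the list of 32 tested NF-kappaB genes and cytokines it was joined by the subunits NFKB1 (0.42) and NFKB2 (0.41), while TNFAIP2 fell (-0.72). Of the STAT3 list, which has 20 tested genes, the receptor subunits IL6ST (0.52) and OSMR (0.37) rose and the feedback inhibitor SOCS3 fell (-0.42, adjusted p = 0.0498). In these 2 lists 12.5% and 15% were called, against 3.1% of all genes tested. SOCS3 lost its call with DESeq2's size factors and with the correction for GC content and length. NRG1, a ligand of ERBB3 and ERBB4, was the only 1 of 11 EGF family genes to pass. NRG1 gave 177 and 178 CPM at 3 h and 337 and 376 CPM at 6 h, and the log2 change was 1.01 ± 0.10 (SE, adjusted p = 4.61e-05). At 3 h NRG1 had stood below its 0 h values of 208 and 190.0 CPM in both libraries, but this change did not pass the test (log2 change -0.17, adjusted p = 0.286). STC1, which encodes a secreted glycoprotein, showed 71.8 and 76.6 CPM at 3 h and 139.7 and 142 CPM at 6 h (log2 change 0.93).

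Some matrix and adhesion genes rose and none passed as lower. In the list of integrins, matrix and EMT genes 6 of 33 (18.2%) were higher, against 1.44% of all genes, with a median log2 change of 0.14. In 17 of the 33 both 6 h libraries lay above both 3 h libraries, as for 25.5% of all genes tested. ITGA2 was at 82.2 and 95.9 CPM at 3 h and at 139.8 and 160.1 CPM at 6 h, and the log2 change was 0.75 ± 0.11 (SE, adjusted p = 0.00196). ITGA2 encodes the alpha subunit of a collagen receptor. Tenascin C (TNC, 0.72) and the collagen gene COL4A1 (0.81) rose, COL4A1 not in fits of the A549 libraries alone. Of 6 EMT factors, SNAI2 (0.82) and ZEB2 (0.43) rose. SNAI2 was at 8.28 and 9.46 CPM and then at 13.6 and 17.8 CPM. None of 5 cadherin and filament genes passed. Fewer genes of this list were called with any 1 of the 4 libraries left out. The 4 libraries alone gave 14 higher and 4 lower of 31 tested, in a fit that called 18.5% of all genes.

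In the list of the urokinase system, metalloproteinases and their inhibitors 4 of 21 tested members rose and none fell, namely 2 of 14 proteases and 2 of 6 inhibitors. That is 19.0%, against 3.1% of all genes tested. The level of ADAM19 was 8.41 and 10.9 CPM at 3 h and 18.4 and 28.9 CPM at 6 h, and the log2 change was 1.29 ± 0.22 (SE, adjusted p = 0.00451). This protease gene lost its call in the 4 A549 libraries alone. TIMP3 gave 7.61 and 9.54 CPM at 3 h and 13.7 and 25.9 CPM at 6 h, and the log2 change was 1.21 ± 0.28 (SE, adjusted p = 0.0371). TIMP3 encodes an inhibitor of metalloproteinases. Its 6 h libraries lay farther from each other than the lower of them from the 3 h libraries, and its call was lost in fits of the A549 libraries alone and without the NCI-H596 12 h libraries. MMP25 rose too (0.69), but not with DESeq2, and an antisense gene covers 30.6% of it. Of the 16 tested genes of the MET system itself, none passed. MET was at 1252 and 1271 CPM and then at 1481 and 1530 CPM (log2 change 0.26, adjusted p = 0.145), and HGF, with 1 count in the 4 libraries, was not tested.

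**Figure D3:**
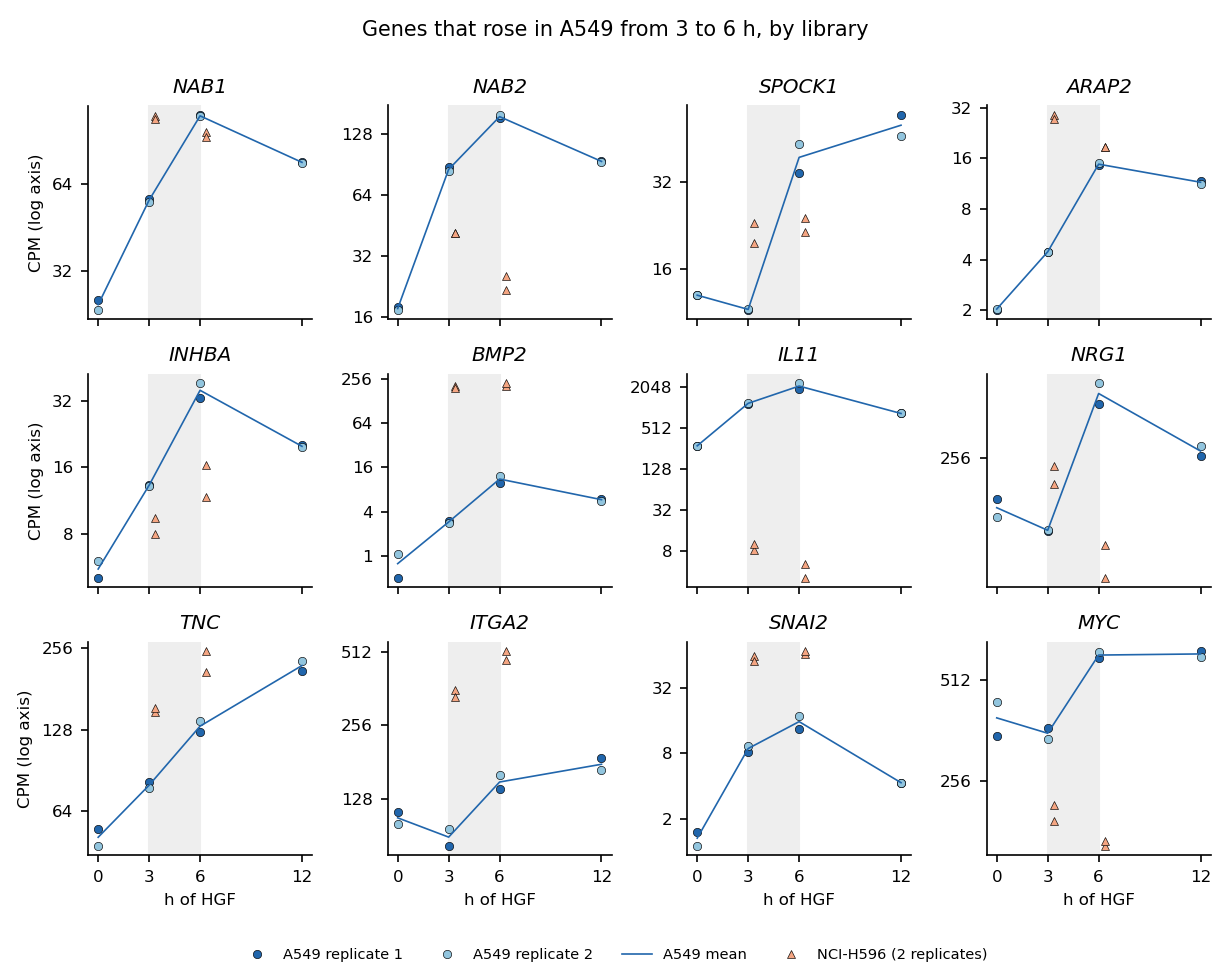
Level in CPM (y axes, log scale) at 0, 3, 6 and 12 h of HGF (x axes) for 12 genes that rose in A549 from 3 to 6 h, drawn as for the immediate early genes. In each panel both A549 circles at 6 h lie above both at 3 h. The NCI-H596 triangles of NAB1, NAB2, ARAP2, IL11, NRG1 and MYC lie lower at 6 h than at 3 h.

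Among genes averaging a log2 CPM of 3 or more, the largest rises were those of SPOCK1 and ARAP2. SPOCK1 was at 11.6 CPM in both libraries at 3 h and at 34.4 and 43.1 CPM at 6 h, and the log2 change was 1.73 ± 0.14 (SE, adjusted p = 4.13e-06). SPOCK1 encodes a proteoglycan of the testican family, and its level had been 13.02 and 13.01 CPM at 0 h. The level of ARAP2 was 4.47 and 4.45 CPM at 3 h and 14.6 and 15.01 CPM at 6 h, and the log2 change was 1.73 ± 0.12 (SE, adjusted p = 1.44e-06). ARAP2 encodes a GTPase-activating protein for ARF6. DCLK1 gave 16.1 and 18.02 CPM at 3 h and 40.9 and 49.6 CPM at 6 h, and the log2 change was 1.41 ± 0.14 (SE, adjusted p = 4.61e-05). DCLK1 encodes a microtubule-associated kinase. KSR2 was at 61.4 and 63.9 CPM at 3 h and at 119 and 173 CPM at 6 h, and the log2 change was 1.22 ± 0.19 (SE, adjusted p = 0.00344). KSR2 encodes a scaffold of the RAF and ERK cascade, its libraries differed more at 6 h than at 3 h, and its call was lost in the A549 libraries alone. The others of the 12 were INPP4B (1.18), which encodes a lipid phosphatase, DNAH17 (1.05), a dynein gene, SEMA6A (1.02), a semaphorin gene, and CGB8 (1.59), 1 of several near-identical chorionic gonadotropin genes, so that its reads may belong to another copy.

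Of 40 tested genes of mitosis, 22 (55%) were lower, against 1.66% of all genes, and none higher. The median log2 change was -0.56, and all 40 had a negative change. In all 40 both 6 h libraries were below both 3 h libraries, against 28% of all genes. The level of PLK1 was 14.9 and 13.2 CPM at 3 h and 6.96 and 4.31 CPM at 6 h, and the log2 change was -1.31 ± 0.17 (SE, adjusted p = 0.000709). PLK1 encodes a kinase that drives entry into mitosis. MKI67 gave 64.7 and 68.1 CPM at 3 h and 39.2 and 33.6 CPM at 6 h, and the log2 change was -0.87 ± 0.19 (SE, adjusted p = 0.0262). MKI67 encodes the Ki-67 protein of cycling cells. CDC20 was at 12.6 and 11.2 CPM at 3 h and at 6.96 and 6.46 CPM at 6 h, and the log2 change was -0.83 ± 0.17 (SE, adjusted p = 0.0162). CDC20 encodes an activator of the anaphase-promoting complex. The level of KIF20A was 4.34 and 4.36 CPM at 3 h and 2.12 and 1.68 CPM at 6 h, and the log2 change was -1.18 ± 0.20 (SE, adjusted p = 0.00453). KIF20A encodes a kinesin of the late spindle. The values of the 2 times did not overlap in these 4 genes. CDK1, the kinase of mitosis, fell by 0.57 on the log2 scale, TOP2A, the topoisomerase that untangles chromosomes, by 0.52 and ESPL1, which encodes separase, by 1.03. In bulk RNA, fewer cells in mitosis and less of these transcripts per cell cannot be told apart.

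By role, 8 of 13 kinases and cyclins, 6 of 15 spindle and kinesin genes and 8 of 12 genes of the anaphase-promoting complex and checkpoint group were lower. Those that did not pass included CCNA2 (-0.74, adjusted p = 0.0529), CCNB1 (-0.44), AURKB (-0.82) and AURKA (-0.25). In 21 of the 22 called, both 3 h libraries were already below both 0 h libraries, and in all 22 both 12 h libraries were below both 6 h libraries. PLK1, for example, stood at 24.7 and 23.8 CPM at 0 h and 3.95 and 3.63 CPM at 12 h. For the 250 genes called lower in all, these counts were 155 and 120. Fewer mitosis genes were called with any 1 of the 4 libraries left out. Without the NCI-H596 12 h libraries 31 were called, and 37 in the 4 libraries alone, when 8.59% and 18.5% of all genes were called.

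Promoters of genes expressed in G2 and mitosis are known to carry the CCAAT box, bound by NF-Y, and the cell cycle genes homology region (CHR, TTTGAA), bound by the MuvB core of the DREAM and MYBL2 complexes. For PLK1 and CDC20 the first RefSeq promoter that held either motif was taken. Those of PLK1 (chr16:23678769-23678888, plus strand) and CDC20 (chr1:43358861-43358980, plus strand) are shown with both in capitals:

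PLK1: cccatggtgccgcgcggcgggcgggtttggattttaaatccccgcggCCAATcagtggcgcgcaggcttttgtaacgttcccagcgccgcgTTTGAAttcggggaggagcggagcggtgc

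CDC20: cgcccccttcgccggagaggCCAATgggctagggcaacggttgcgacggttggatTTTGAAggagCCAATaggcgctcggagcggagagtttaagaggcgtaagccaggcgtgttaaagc

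Of 33 mitosis genes with a RefSeq promoter, 30 (90.91%) held CCAAT within 250 bases before the start and 19 (57.58%) held TTTGAA, on either strand. In the tested genes with a promoter, the shares were 41.45% and 12.25%, and in all RefSeq promoters 32.01% and 13.32%. For the 191 genes called lower with a promoter they were 58.12% and 20.94%, and for the 163 called higher 38.04% and 15.34%. Mitosis genes are part of the lower set, so these shares are not independent, and no test was made.

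**Figure D4:**
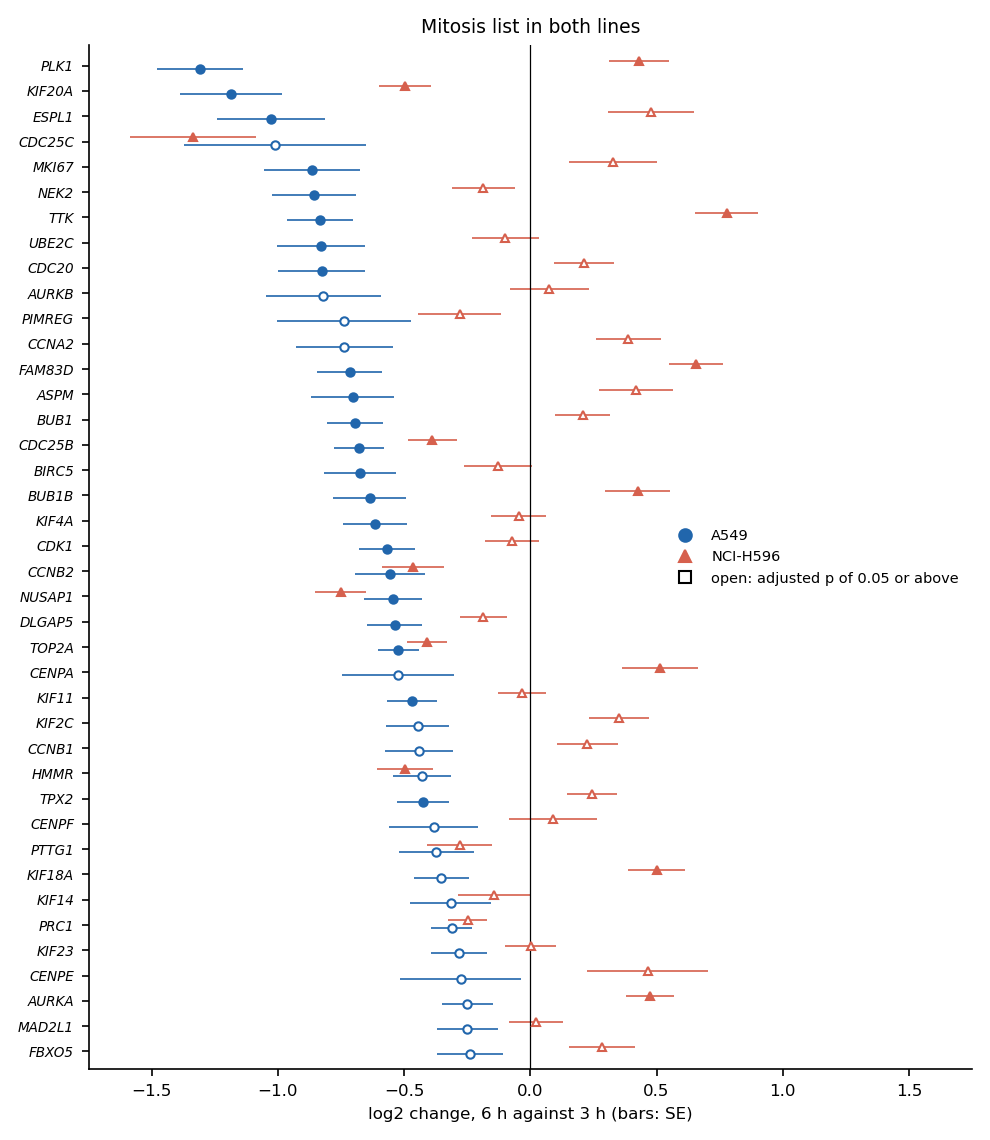
Log2 change from 3 to 6 h (x axis, bars are SE) for the 40 tested genes of the mitosis list (y axis) in A549 (blue circles) and NCI-H596 (red triangles). Filled symbols passed an adjusted p of 0.05. All A549 points lie below 0, while the NCI-H596 points fall on both sides. In NCI-H596, 7 of these genes were called higher and 7 lower, against 4.67% and 5.1% of all genes tested.

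Fewer genes of DNA replication passed. Of 37 tested, 4 (10.8%) were lower and none higher, against 1.66% and 1.44% of all genes. The median log2 change was -0.30, and 31 had a negative change, as did 7686 of all 15067 genes tested. MCM5 gave 28.98 and 27.5 CPM at 3 h and 20.8 and 17.4 CPM at 6 h, and the log2 change was -0.56 ± 0.11 (SE, adjusted p = 0.0105). MCM5 is a subunit of the replicative helicase. RRM2 (-0.58) and TYMS (-0.39), which supply nucleotides, fell too. Among 24 genes of G1 control, CDK6 (-0.54) and RBL1 (-0.66), a relative of the retinoblastoma gene, were lower and none higher. Fewer of the replication genes were called with any 1 of the 4 libraries left out. Without the NCI-H596 12 h libraries 12 were called, when 8.59% of all genes were called.

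In the lists of metabolism and stress, 14.8% of the tested NRF2 genes, 11.8% of the heat shock genes, 11.4% of the integrated stress response and 10.3% of the FOXO list were called, against 3.1% of all genes tested. Of 23 NRF2 targets 4 were lower, TXNRD1 (-0.40), GCLC (-0.38) and ABCC2 (-0.51) among them, and none higher, in a line known for constitutive NRF2 activity. INSIG1, which holds back sterol synthesis, fell by 0.89 on the log2 scale, but no other of 29 lipid genes passed. HSPA1B fell by 0.90, though its reads can be split with the near-identical HSPA1A, and DNAJB1 by 0.35, not with DESeq2's size factors. In the integrated stress response 2 of 44 rose, CHAC1 (0.84) and SLC38A2 (0.43), and 3 fell, PSAT1 (-0.59), SLC1A5 (-0.47) and DDIT4 (-0.60). SLC1A5 lost its call with the correction for GC content and length. The glycolytic regulator PFKFB4 rose (0.99), alone among 35 genes of glycolysis and hypoxia. The clock gene ARNTL rose (0.64), alone among 18. Of 26 FOXO targets 3 rose, IRS1 (0.46), ARRDC4 (0.46) and RICTOR (0.44).

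Of the lists of survival and signalling genes, 11.8% of the BCL2 family, 11.8% of the Notch list, 10.7% of the Eph and semaphorin list and 18.2% of the MYC network were called. Each had 2 or 3 genes called, and the share over all genes tested was 3.1%. BCL2L1, which encodes BCL-XL, was lower (-0.55), with an antisense gene covering 41.3% of it, as was BMF (-0.95), a BH3-only gene, out of 17 BCL2 family genes. In the Notch list, LFNG (-1.22) was lower along with HES1, out of 17. LFNG had 30 and 25 counts at 3 h and 12 and 15 at 6 h, and lost its call in the 8 A549 libraries alone. EPHB2 rose (0.51) and EPHB4 (-0.56) and EFNB1 (-0.56) fell among 28 Eph, ephrin and semaphorin genes, EFNB1 neither with DESeq2's size factors nor with the correction for GC content and length. FHL2 (0.33) was the only 1 of 25 SRF and YAP cytoskeletal targets to pass, upward, and lost its call without the filter on low counts. MXI1, a MYC antagonist, was lower (-0.56), but not with DESeq2, and the ribosome biogenesis gene BOP1 (-0.46) was the only 1 of 52 to pass. No gene passed in the lists of 29 p53 targets, 40 interferon-stimulated genes, 26 endoplasmic reticulum folding genes, 49 cytosolic ribosomal proteins, 38 respiratory chain subunits or 31 proteasome subunits. With 3.1% of all genes called, lists of this size hold few calls or none, and 10 of the 40 were at 3 counts or fewer. Without the NCI-H596 12 h libraries 5 p53 targets were lower, and 9 in the 4 libraries alone, when 8.59% and 18.5% of all genes were called. TSKU, which encodes a secreted leucine-rich repeat protein and is in no list, was at 78.3 and 69.3 CPM and then at 30.1 and 28.1 CPM (a log2 change of -1.34 ± 0.15 (SE), adjusted p = 0.000216).

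The genes called higher and lower differed in structure, which is given as a description. The median length from start to end in the genome was 83.2 kb for 216 protein-coding genes called higher, 28.4 kb for 246 called lower and 33.5 kb for all tested. The median 3′ UTR of the annotated canonical transcript was 2234, 1308.5 and 1312 bases. The AU-rich nonamer TTATTTATT, an element of unstable transcripts, was found in the 3′ UTR of 21.8% of genes called higher, 8.13% of genes called lower and 9.52% of all tested. Expression also differed, with a median log2 CPM of 6.20, 4.64 and 4.37, so that the level, the length and the call are not separate.

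In NCI-H596 the same interval changed other genes as well. There, 703 genes (4.67%) were higher and 769 (5.1%) lower at 6 h than at 3 h. Of the 250 genes lower in A549, 58 were lower and 18 higher in NCI-H596, and of the 217 higher in A549, 21 were higher and 29 lower. The difference between the 2 changes was tested itself and passed for 775 genes (5.14%), 207 of them among the 467. The lines differ in more than MET status, and the part of MET∆14 in these differences cannot be told apart from that of the line.

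The early genes were part of this. In NCI-H596, 17 of the 30 were lower and none higher, against 5.1% and 4.67% of all genes tested. The difference between the lines passed for 12 of the 30, against 5.14% of all genes tested. EGR1 was at 128 and 115 CPM in NCI-H596 at 3 h and at 81.8 and 89.2 CPM at 6 h (log2 change -0.50, adjusted p = 0.196). The change differed by -1.43 ± 0.31 on the log2 scale (adjusted p = 0.0199). FOS was at 30.9 and 29.4 CPM in NCI-H596 at 3 h and at 17.4 and 19.9 CPM at 6 h (log2 change -0.68, adjusted p = 0.00414), and the difference was -1.42 ± 0.18 on the log2 scale (adjusted p = 0.000386). NR4A1 was at 11.1 and 11.3 CPM in NCI-H596 at 3 h and at 4.72 and 3.51 CPM at 6 h (log2 change -1.48, adjusted p = 7.09e-05), with a difference of -1.16 ± 0.20 on the log2 scale (adjusted p = 0.00382). For EGR3 the changes were -2.30 in A549 and -2.28 in NCI-H596, a difference of -0.02 ± 0.35 on the log2 scale (adjusted p = 1). KLF2 was low in NCI-H596, at 1.14 and 1.08 CPM at 3 h.

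NAB2 moved in opposite directions. NAB2 was at 41.8 and 41.6 CPM in NCI-H596 at 3 h and at 21.7 and 25.5 CPM at 6 h (log2 change -0.81, adjusted p = 0.000103), so that the difference between the lines was 1.67 ± 0.12 on the log2 scale (adjusted p = 4.77e-06). NRG1 was at 246 and 225 CPM in NCI-H596 at 3 h and at 139 and 165 CPM at 6 h (log2 change -0.63, adjusted p = 0.00131), and the difference was 1.63 ± 0.14 on the log2 scale (adjusted p = 1.47e-05). IL11 was at 8.39 and 10.1 CPM in NCI-H596 at 3 h and at 3.29 and 5.14 CPM at 6 h (log2 change -1.09, adjusted p = 0.00268), against the rise in A549, a difference of 1.93 ± 0.23 on the log2 scale (adjusted p = 0.000297). ARAP2 was at 28.9 and 27.6 CPM in NCI-H596 at 3 h and at 18.7 CPM in both libraries at 6 h (log2 change -0.59, adjusted p = 0.00175), with a difference of 2.32 ± 0.16 on the log2 scale (adjusted p = 2.36e-06). It was the largest among genes called both in A549 and for the difference that average a log2 CPM of 3 or more in both lines. LBH, a transcriptional cofactor gene, rose in A549 (0.56) and fell in NCI-H596 (-1.23). ITGA2 rose in both lines, by 0.75 in A549 and by 0.52 in NCI-H596 on the log2 scale, and the difference did not pass (adjusted p = 0.475).

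For mitosis the difference passed for 16 of 40 genes, against 5.14% of all genes tested. PLK1 was at 65.1 and 75.5 CPM in NCI-H596 at 3 h and at 96.7 and 93.2 CPM at 6 h (log2 change 0.43, adjusted p = 0.034), a difference of -1.74 ± 0.21 on the log2 scale (adjusted p = 0.000306). TTK was at 12.3 and 13.2 CPM in NCI-H596 at 3 h and at 21.9 CPM in both libraries at 6 h (log2 change 0.78, adjusted p = 0.00149), with a difference of -1.61 ± 0.18 on the log2 scale (adjusted p = 0.000214). TTK encodes a kinase of the spindle checkpoint. INCENP, a subunit of the chromosomal passenger complex, fell in A549 (-0.90) and rose in NCI-H596 (0.62), as did the nucleoside transporter gene SLC29A1 (-0.85 and 0.85) and MTMR4 (-0.73 and 0.79). For the list as a whole the median log2 change was -0.56 in A549 and 0.05 in NCI-H596.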

How the data were processed

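The submitters' processing notes name STAR 2.5.0, RSEM 1.3.2 and the build hg38, and the authors trimmed adapters before mapping. The deposited table holds whole-number counts of reads per gene from the authors, not normalized. Whether counting used strand, and the annotation behind it, are not given in the sources used here. A549 columns start with H549 in the table and were matched by the rest of the name, and no column was without a sample.

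The counts were fitted with edgeR 4.0.16 under R 4.3.3 (TMM scaling, filterByExpr with a minimum count of 10, robust quasi-likelihood fit). One coefficient per line and time was fitted over 16 libraries, 6 h was contrasted with 3 h in A549, and Benjamini-Hochberg adjustment was made over 15067 genes with a threshold of 0.05. The difference between lines was the contrast of the 2 changes in the same fit. SE is the log2 change over the root of F. CPM uses TMM-scaled library sizes. These are biological duplicates per the study's methods. SE includes the fitted spread between duplicates, whereas the upper limit given for 0 counts and the floors (3 counts) cover counting error only. Scripts were tested on simulated data.

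The comparison, the 36 gene lists and the rule for named genes were chosen with earlier results of these data known. Named are MET, MTAP, CDKN2A and TBP, the 12 largest rises and falls averaging a log2 CPM (prior count of 2) of 3 or more, up to 3 called members per list and direction, all members of lists described in full, and the 6 largest differences between the lines in each direction. These differences were ranked among genes called both in A549 and for the difference, averaging a log2 CPM of 3 or more in both lines. Some named genes are not reported here. TBP did not pass (log2 change -0.03). Gene positions, UTRs and overlaps are from GENCODE on hg38, and promoters from RefSeq on GRCh38.p14, of which 11036 tested genes had at least 1. Alternatives were DESeq2 1.42.0 and its size factors, other filters, a minimum log2 change of 1, a replicate block, fewer libraries, each library left out, and, added after the data were seen, a correction for GC content and length and fits without NCI-H596 12 h or also A549 0 h libraries. Figures were drawn with matplotlib.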

Additional observations from a re-analysis of the deposited data

Results flagged for a closer look

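Of the named genes, 44 changed differently from 3 to 6 h in the 2 lines, by the test of the difference itself (edgeR's quasi-likelihood test, adjusted p under 0.05 over 15067 genes, of which 5.14% passed). Most were named for being called in A549, and up to 6 per direction for this difference, so 44 cannot be set against that share. Of the 467 genes called in A549, 207 passed. Values are the A549 log2 change minus that of NCI-H596. It was negative for 20 genes.

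The early factors and ZFP36 in this set were KLF2 (-1.87), EGR1 (-1.43), FOS (-1.42), NR4A1 (-1.16) and ZFP36 (-1.09). The genes of cell division and replication were PLK1 (-1.74), TTK (-1.61), INCENP (-1.52), ESPL1 (-1.51), RBL1 (-0.88), CDK6 (-0.79) and MCM5 (-0.64). The others were SLC29A1 (-1.70), MTMR4 (-1.52), BOP1 (-1.22), TSKU (-0.85), HSPA1B (-0.75), EFNB1 (-0.67), SLC1A5 (-0.62) and PSAT1 (-0.53).

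It was positive for 24 genes. Those that encode secreted or surface-linked ligands and matrix proteins were IL11 (1.93), BMP2 (1.81), NRG1 (1.63), STC1 (1.67), TIMP3 (1.77), SPOCK1 (1.65) and SEMA6A (1.03). The factors and cofactors were NAB2 (1.67), LBH (1.79), MYC (1.07), NFKB1 (0.66), NFKB2 (0.58), KLF5 (0.60), ARNTL (0.54) and FHL2 (1.05). The others were ARRDC4 (0.63), PMEPA1 (0.63), BTG1 (0.64), SLC38A2 (0.67), PFKFB4 (0.95), CHAC1 (1.11), INPP4B (1.20), DCLK1 (2.20) and ARAP2 (2.32). All rest on 2 libraries per line and time, and a difference of lines cannot be told apart from one of MET status.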

How the results depend on the processing

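Of the 90 named genes called, 31 were called under every alternative but the minimum log2 change, which was applied to the counts of genes alone, and none changed direction. The 467 changed genes became 860 without the filter on low counts, 951 in the 8 A549 libraries alone, 2435 in the 4 alone, 1288 without the NCI-H596 12 h libraries, 1982 without these and the A549 0 h libraries, 68 at a log2 change of at least 1, and 96 to 204 with 1 library left out. The 775 genes that differ between the lines became 2001, 2801, 205 and 235 to 381 under the last 4, in that order. The common coefficient of variation was 0.0868 over 16 libraries, 0.0555 without the NCI-H596 12 h libraries and 0.0406 in the 4 alone. DESeq2 gave 627 and 968, its size factors 482 and 765, at least 10 counts in every library 527 and 898, and the correction for GC content and length 665 and 1158. With at least 10 counts the differences split into 539 positive and 359 negative, against 376 and 399. Without 6 h replicate 1, 119 of the changed genes were higher and 85 lower. With a replicate block, 309 and 523 genes were called, and 18 of the named genes lost their call. Deviations of same-numbered 3 and 6 h libraries correlated at -0.019 over the genes tested. Genes of low counts, where counting error is large, weigh equally here, so this value does not decide whether libraries are paired by number. With 2 libraries per time, smaller changes in genes of low counts were not detectable, and 2321 genes had an unadjusted p under 0.05. No cause of these shifts was tested.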
